A study of Mus musculus with 282 samples.

Results

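The BXD mice of the panel are the 126 male mice, of 282 deposited in all, whose strain label starts with BXD. They belong to 43 of the 99 strains, with 3 mice in each of 40 strains and 2 mice in each of 3 strains. The labels place 18 of these strains in the TyJ series (BXD-5/TyJ to BXD-40/TyJ) and 25 in the later RwwJ series (BXD43 to BXD87). The parents, C57BL/6J and DBA/2J, were measured in 3 mice each. All of these mice were male, all had been fed a high fat diet, and no other allele, treatment or diet separates the groups. The tissue was the whole hypothalamus, and each mouse gave 1 unstranded, paired-end mRNA library. Expression was read as FPKM, fragment counts divided by transcript length and by library size, for 14079 gene rows, of which 12524 carry a position in mm10. The question was which genes differed between BXD strains, and which of them took 2 separate levels as a single locus with 1 C57BL/6J and 1 DBA/2J allele would give.

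Recombinant inbred strains are made by crossing a pair of inbred parents and then mating siblings for many generations, so that each strain is fixed for a mosaic of the parental chromosomes. At any locus, some BXD strains are therefore homozygous for the C57BL/6J allele and the others for the DBA/2J allele. A gene whose level is set mainly by 1 locus takes 2 levels across such strains, and genes that lie close together tend to carry the same parental allele because few crossovers fall between them. The RwwJ strains were derived from an advanced intercross, which has more generations of crossing before inbreeding. The hypothalamus is the part of the brain that controls feeding, fluid balance, body temperature and the pituitary hormones.

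Summed FPKM ran from 324154 to 359916 in 125 BXD mice and reached 792801 in mouse OB-547 of BXD-12/TyJ, against a median of 339984. Read counts are not part of the deposited table, so depth is unknown and no counting interval is given. Over 141 genes with the most widely separated levels, the median mouse was on the same side as the other mice of its strain at 100% of genes, and 121 mice were so at 98% or more. Mouse OB-831 of BXD56 matched its strain at 80.9% and had 34.0% of these genes between the levels, that is 25 to 75% of the way from one to the other, and mouse OB-547 matched at 82.98% with 15.6% between. The next lowest match was 97.1%, and the median share between the levels was 3.19%. No 2 libraries held the same values, and the highest correlation between mice of a strain was 0.989. The main counts are given with and without these libraries.

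Strain mattered for a large part of the transcriptome. In limma's F test on log2(FPKM + 1), 5833 of 14079 genes differed between the 43 BXD strains at an adjusted p under 0.05, which is 41.4%. The share of a gene's variance that lay between strains, measured as an intraclass correlation, had a median of 15.2% (quartiles 4.79% and 28.7%), and 7.61% of genes had a share above 50%. Without mouse OB-547 the count was 7615 genes and the median share 19.97%. In bulk tissue, fewer cells of a type and less RNA per cell cannot be told apart.

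A gene was called two-mode when it passed the F test and its 43 strain means fell into 2 groups of at least 8 strains whose difference was at least 5 times their spread (the root of the mean of their variances). Of 14079 genes, 330 met this rule (2.34%), or 346 without mouse OB-547. The smallest value of that separation inside the rule was 5.02, and the largest outside it was 4.99. The parents had no part in the rule. They fell in opposite modes for 329 of the 330 genes (344 of 346 without mouse OB-547), so each mode can be called the C57BL/6J side or the DBA/2J side. In limma's contrast of DBA/2J against C57BL/6J, 306 of the 330 genes were called (92.7%), against 5.5% of all genes (2.62% higher and 2.88% lower in DBA/2J), and the sign was that of the modes in all 306. Without mouse OB-547, 328 two-mode genes were called between the parents. The other 24 two-mode genes missed the threshold between the parents. In the other direction, 468 genes were called between the parents and were not two-mode. Single parental mice gave the same picture, since the C57BL/6J mice lay on the DBA/2J side at 0.912 to 1.82% of the genes and the DBA/2J mice at 97.6 to 97.9%. The difference between modes had a median of 1.08 and a range of 0.33 to 8.17 on the log2(FPKM + 1) scale. For 83 genes no single BXD mouse lay past the midpoint between the modes.

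Among genes with an ordinary symbol, Wdfy1, which encodes a WD repeat and FYVE domain protein of early endosomes, showed one of the widest separations (chr1:79702262-79761769). The 15 strains on the C57BL/6J side had a lowest, median and highest mean of 5.003, 5.57 and 6.48 FPKM, and the 28 strains on the DBA/2J side had 15.7, 17.1 and 18.4 FPKM. The ranges did not overlap, and the modes differed by 1.47 on the log2(FPKM + 1) scale with SDs of 0.07 and 0.06. The C57BL/6J mice had 4.77, 5.43 and 5.53 FPKM and the DBA/2J mice 15.9, 17.2 and 17.8 FPKM, a log2 difference of 1.53 ± 0.11 (SE, limma adjusted p = 5.6e-21).

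Pttg1 and Mcm6, genes of cell division, were lower on the DBA/2J side. Pttg1 encodes securin, which holds the separase protease inactive until anaphase (chr11:43420250-43426251). Its strain means had a lowest, median and highest of 23.3, 34.2 and 40.9 FPKM on the C57BL/6J side (23 strains) and 2.78, 3.81 and 7.68 FPKM on the DBA/2J side (20 strains). The highest on the DBA/2J side was BXD-12/TyJ, which holds mouse OB-547, and the next was BXD60 at 5.46 FPKM. The log2 difference between modes was -2.82 and that between the parents -2.53 ± 0.21 (SE, limma adjusted p = 1.4e-17), with no overlap of the modes. Mcm6, a subunit of the replicative helicase, was low in absolute terms, with medians of 2.90 and 0.60 FPKM, and the highest strain on the DBA/2J side (0.87 FPKM) lay below the lowest on the C57BL/6J side (2.24 FPKM).

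Genes of the secretory pathway went in either direction. Scg5 encodes 7B2, the chaperone that prohormone convertase 2 needs to mature, and it had a median of 167 FPKM on the C57BL/6J side and 352 FPKM on the DBA/2J side (chr2:113776354-113829121). The C57BL/6J side ran from 147 to 190 FPKM and the DBA/2J side from 324 to 578 FPKM. The highest of these strains was BXD-12/TyJ, which holds mouse OB-547, and the next was BXD50 at 412 FPKM. The parental mice had 147 to 154 FPKM in C57BL/6J and 357 to 392 FPKM in DBA/2J, a log2 difference of 1.31 ± 0.15 (SE, limma adjusted p = 5.4e-12). Copa, the alpha subunit of the COPI vesicle coat, was lower with DBA/2J, with medians of 71.4 and 45.4 FPKM, ranges of 65.98 to 77.6 and 43.4 to 52.0 FPKM, and no mouse past the midpoint. Its log2 difference of -0.62 was small beside those above, but the SDs of the modes were only 0.05 and 0.07.

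**Figure D1:**
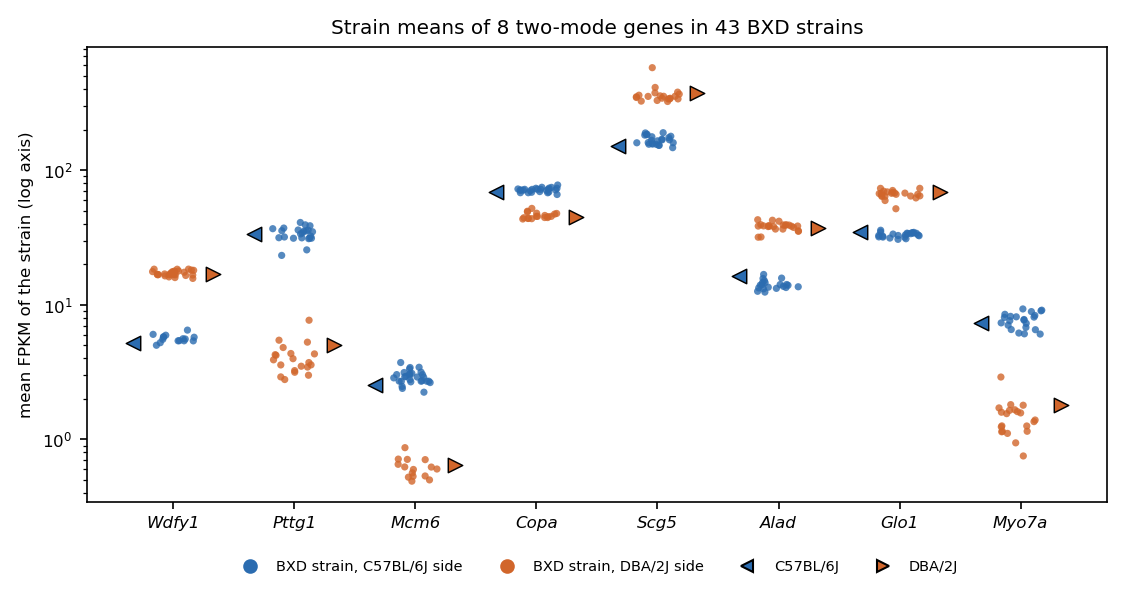
Mean FPKM of each of the 43 BXD strains (dots, log axis) for 8 two-mode genes, coloured by parental side, with the means of C57BL/6J and DBA/2J as triangles. In each gene the 2 clouds are separate, and each parent lies at the level of its own side, as for Wdfy1 with medians of 5.57 and 17.1 FPKM.

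Other two-mode genes with wide separations had a range of functions. Neat1, the long non-coding RNA around which paraspeckles form, had strain means of 18.8 to 44.8 FPKM (median 27.2) on the C57BL/6J side and 2.14 to 4.87 FPKM (median 3.50) on the DBA/2J side. Myo7a, an unconventional myosin of sensory hair cells, had medians of 7.74 and 1.39 FPKM, and Acp1, a low molecular weight phosphatase, had 9.93 and 3.53 FPKM. Ppp1r3e, a glycogen-targeting subunit of protein phosphatase 1, had medians of 6.68 and 1.98 FPKM, and Pdxdc1 had 43.1 and 18.6 FPKM. Each of these 5 genes was lower with DBA/2J and had modes that did not overlap. Ntn4, which encodes the secreted guidance protein netrin-4, was higher with DBA/2J, with medians of 3.19 and 6.33 FPKM, as were the zinc finger gene Zfp949 (7.70 and 18.1 FPKM) and the serine protease gene Prss41 (0.28 and 5.96 FPKM). The X chromosome and each autosome held two-mode genes, from 4 on chromosomes 10 and 16 to 29 on chromosome 1. None of the rows on the X chromosome was among the protein-coding genes of unshared sequence used below. Several are pseudogenes that resemble an autosomal gene, such as Gm8822, which resembles Actr3 on chromosome 1. Whether an X-linked locus sets the level of these rows was not tested.

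Among genes already known to differ between C57BL/6J and DBA/2J, 13 of 20 listed were measured, 12 differed between BXD strains and 4 were two-mode (30.8%, against 2.34% of all genes). The genes were picked for a difference between these parents, so a share above that of all genes was built into the choice. Known duplications in DBA/2J cover the loci of Glo1, the glyoxalase that removes methylglyoxal, and of Alad, the second enzyme of heme synthesis. Glo1 had strain means of 30.6 to 35.8 FPKM (median 32.97) on the C57BL/6J side and 51.7 to 73.3 FPKM (median 67.0) on the DBA/2J side. Alad had 12.4 to 16.8 FPKM (median 13.98) and 31.8 to 42.8 FPKM (median 38.4), and its neighbour Hdhd3 had medians of 2.73 and 9.06 FPKM. These 3 genes were called between the parents by limma with the sign of their modes, at adjusted p values from 1.1e-11 for Glo1 to 3.3e-06 for Alad. The lowest strain on the DBA/2J side was BXD-12/TyJ, which holds mouse OB-547, for both Glo1 and Alad. The next strains were BXD86 at 59.5 FPKM for Glo1 and BXD68 at 31.9 FPKM for Alad. Nnt, the mitochondrial transhydrogenase that is partly deleted in C57BL/6J, and the locus of Gabra2 with Gabrg1, GABA-A receptor subunits, stood just outside the rule with separations of 4.88 and 4.98. Without mouse OB-547, 6 genes of this list were two-mode, these loci being the additional ones.

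The parental side of a gene followed its position. For each pair of two-mode genes with opposite parents, discordance is the percentage of the 43 strains in which the 2 genes were on unlike sides. Its median was 2.33% for 87 pairs under 1 Mb apart, 23.3% for 163 pairs at 1 to 5 Mb, 32.6% for 448 pairs at 5 to 20 Mb, 44.2% for 686 pairs at 20 to 50 Mb and 48.8% for 895 pairs over 50 Mb apart. Pairs on different chromosomes also had a median of 48.8% (34572 pairs). Neighbours thus shared their side in nearly every strain, and distant genes were on like sides about as often as on unlike ones. Without mouse OB-547, OB-831 or both, the medians under 1 Mb and between chromosomes were again 2.33% and 48.8%.

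Not every neighbour was on the same side. Under 1 Mb, 10 of 87 pairs were on unlike sides in over 40% of strains, and at 1 to 5 Mb this held for 64 of 163 pairs. When the genes were limited to 116 two-mode genes that are annotated as protein-coding and share at most 10% of their 50-base windows with another gene, a limit chosen after seeing the data, the counts were 0 of 30 pairs and 2 of 37 pairs. The medians of these genes were 2.33% under 1 Mb, 6.98% at 1 to 5 Mb, 25.6% at 5 to 20 Mb, 39.5% at 20 to 50 Mb and 48.8% beyond.

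**Figure D2:**
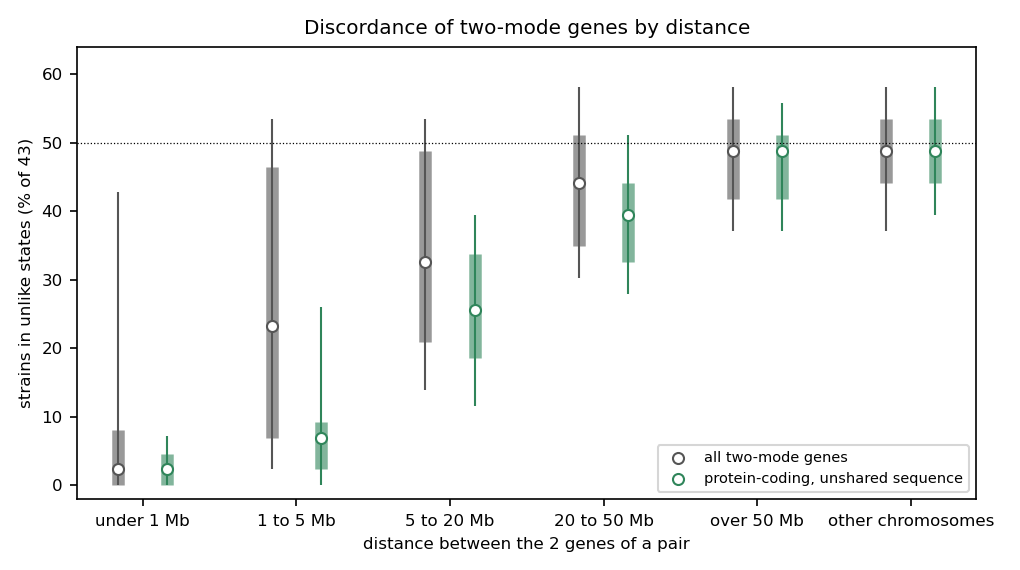
Percentage of the 43 BXD strains in which both genes of a pair were on unlike parental sides, by distance, for all two-mode genes (grey) and for the protein-coding ones of unshared sequence (green). Circles are medians, thick bars quartiles and thin lines the 10th to 90th percentiles. Both medians start at 2.33% under 1 Mb and reach 48.8% over 50 Mb, and the spread at 1 to 5 Mb is much wider for the full set.

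Read along the genome, the 116 protein-coding genes gave a coarse map of each strain. The share of them on the DBA/2J side ran from 13.8% in BXD-20/TyJ to 83.6% in BXD-32/TyJ. The next strains inward were BXD-40/TyJ at 28.4% and BXD50 at 65.5%, so the 2 extreme strains stood well apart from the others. Over 97 intervals between neighbouring genes of 1 chromosome, TyJ strains changed side 17.1 ± 6.04 times (SD, n = 18, range 9 to 32) and RwwJ strains 22.3 ± 5.004 times (SD, n = 25, range 14 to 36). The difference of 5.17 gave p = 0.0035 in a two-sided permutation test with 100000 resamples, a comparison chosen after seeing the data. The ranges of the 2 series overlapped widely, and the highest TyJ strain was BXD-12/TyJ, which holds mouse OB-547. BXD56, the RwwJ strain that holds mouse OB-831, changed side 28 times. The comparison without these mice is not given.

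**Figure D3:**
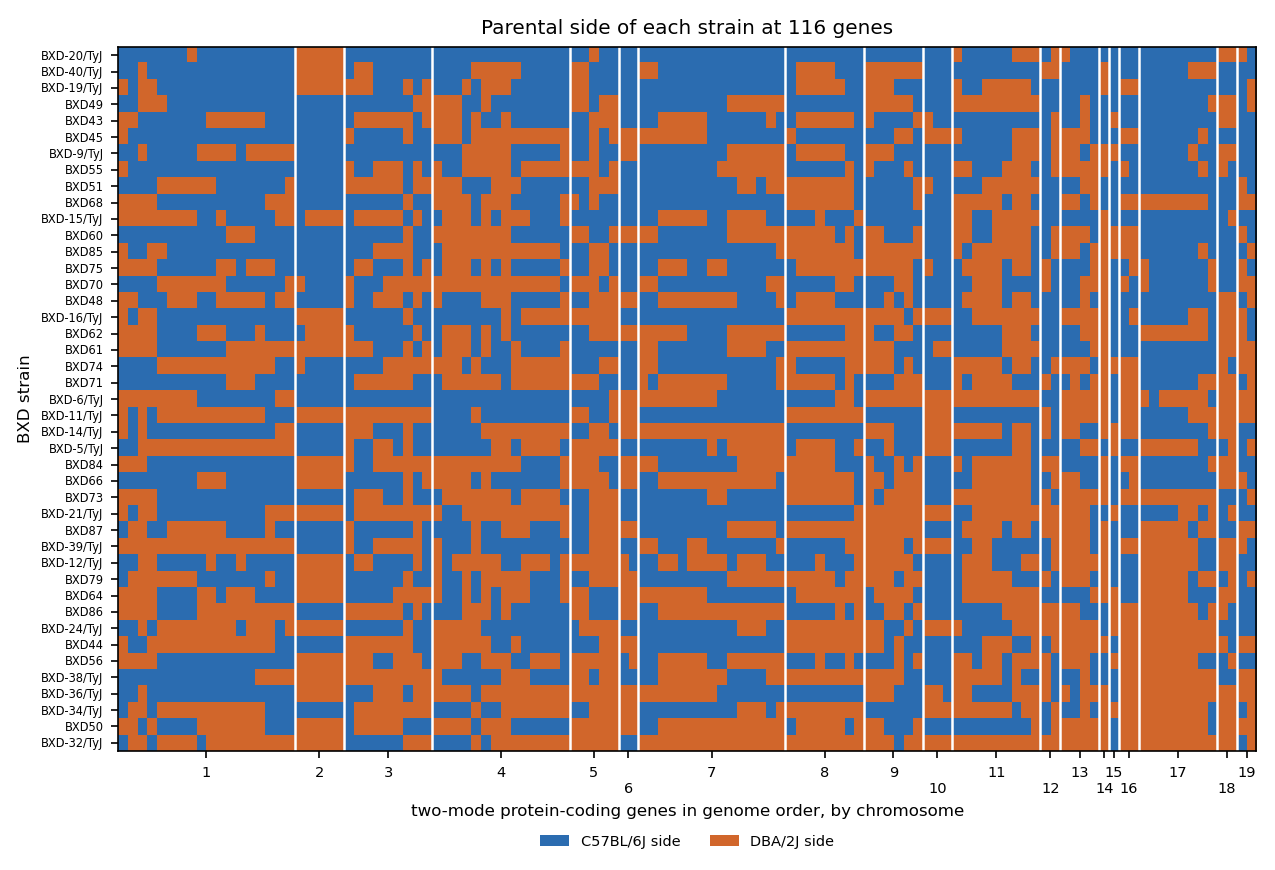
Parental side of each BXD strain (rows, ordered by the share on the DBA/2J side) at 116 protein-coding two-mode genes in genome order (columns, white lines between chromosomes). Runs of 1 colour along a row are stretches of genes on the same side, and BXD-20/TyJ at the top (13.8% on the DBA/2J side) and BXD-32/TyJ at the bottom (83.6%) are nearly of 1 colour.

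Many genes with a continuous spread also varied with the parental side of their region. The local state of a strain at a gene was taken as the majority side of up to 5 nearest two-mode genes within 5 Mb, leaving out the gene itself and genes that overlap it, and could be assigned for 7518 genes. In limma's test of strain means on the local state, 1180 genes were called (15.7%), of which 481 were higher with DBA/2J (6.4%) and 699 lower (9.3%). Without mouse OB-547 the count was 1331, and without both doubtful mice 1290. Only 122 of the called genes were two-mode, of 185 two-mode genes with a local state, and 1058 were not. The effects were small, with a median absolute log2 difference of 0.21 (quartiles 0.14 and 0.36), 84.5% of them under 0.5, 47 genes over 1 and a largest of 4.59. The sign matched that between the parents in 1065 of 1180 called genes (90.3%) and in 56.7% of the genes not called. With the local state read from the 116 protein-coding genes alone, 1054 of 4517 genes were called (23.3%), with 9.65% of the genes higher and 13.7% lower with DBA/2J. Of the called genes 87.0% were also called in the first test, and 89.1% had the sign of the parents.

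**Figure D4:**
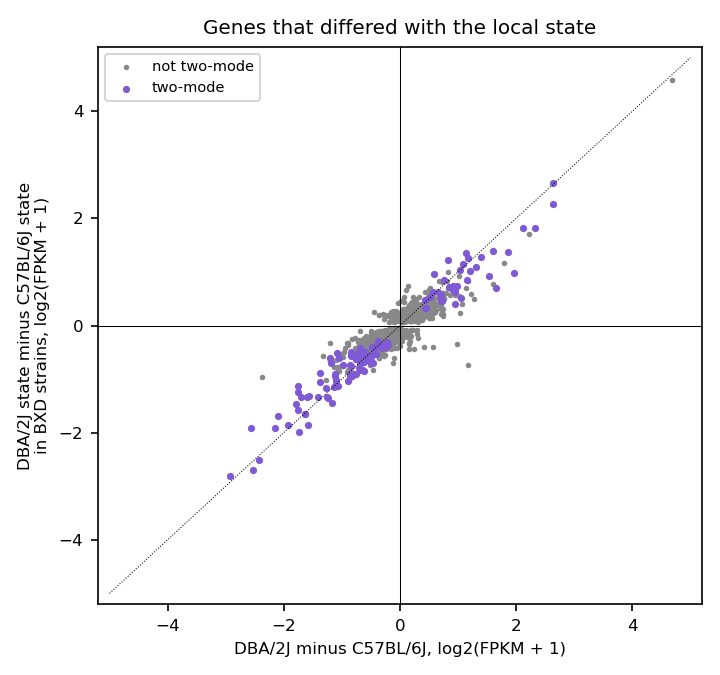
For the 1180 genes that differed with the local state, the difference between DBA/2J and C57BL/6J mice (x axis) against that between BXD strains with the DBA/2J and the C57BL/6J state (y axis), both on the log2(FPKM + 1) scale, with the line of equality dotted. Most points lie in the quadrants of like sign, as counted for 1065 genes, and two-mode genes (purple) hold most of the larger differences.

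The two-mode genes were unevenly spread over classes of gene. By the GENCODE M21 annotation at the same positions, 69 of 243 pseudogene rows were two-mode (28.4%), as were 28 of 148 rows with no annotated gene (18.9%), 20 other non-coding rows (3.7% of their class) and 156 of 11592 protein-coding rows (1.35%), against 2.34% of all rows. These shares hold for listed rows only, because rows with low values in most mice of the series had been filtered out. A copy that is nearly absent on the other side is listed only through strains where it is higher. An example is Gm14131, with a median of 1.24 FPKM on the DBA/2J side and 0 FPKM on the other. How far this selection raised the share of two-mode rows among pseudogenes and rows with no annotated gene was not tested. The direction of the modes differed between classes as well. Among pseudogenes 66 were higher on the DBA/2J side and 3 lower, and among protein-coding genes with opposite parents 53 were higher and 102 lower. Processed pseudogenes are copies of a spliced messenger RNA inserted elsewhere in the genome, so their sequence resembles the exons of a source gene. The median two-mode pseudogene had 43.6% of its 50-base windows in another gene, near the 41.3% of all pseudogene rows, against 0.53% for two-mode protein-coding genes. Without either or both of the doubtful mice, 66 of 69 or 67 of 70 two-mode pseudogenes were higher with DBA/2J.

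The modes of these copies followed the region of their source gene rather than their own. A source gene was taken as a protein-coding gene on another chromosome that holds at least 25% of the 25-base windows of the copy, a definition set after seeing the data, and 58 two-mode pseudogenes had one. Of these, 57 were higher with DBA/2J. The local state from protein-coding genes around the copy itself could be had for 20 of them and matched the copy in at least 90% of strains for 0. The local state around the source gene could be had for 33 and matched in at least 90% of strains for 30. For the 11 copies with both, the source region matched better in all 11, with a median of 97.7% against 55.8% for the region of the copy.

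Short stretches of 3 pairs are shown because they carry the difference between copy and source, and capitals mark the bases that are unlike within a pair. They are 60-base coding stretches of the source in the C57BL/6J reference (GENCODE M21 transcripts, mm10), written 5′ to 3′, with the strand after the position. Rplp0 and Gm8730 lie at chr5:115561114-115561173 (+) and chr8:102865406-102865465 (-), Rps18 and Gm10260 at chr17:33952233-33952292 (-) and chr13:97760218-97760277 (-), and Mrpl48 and Mrpl48-ps at chr7:100552615-100552674 (-) and chr4:88599376-88599435 (-).
Rplp0: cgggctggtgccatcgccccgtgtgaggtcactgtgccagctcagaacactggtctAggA
Gm8730: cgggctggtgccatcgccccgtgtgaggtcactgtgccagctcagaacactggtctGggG
Rps18: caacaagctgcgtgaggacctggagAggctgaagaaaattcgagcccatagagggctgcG
Gm10260: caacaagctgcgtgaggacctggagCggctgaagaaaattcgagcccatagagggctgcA
Mrpl48: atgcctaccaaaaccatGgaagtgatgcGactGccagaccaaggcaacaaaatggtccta
Mrpl48-ps: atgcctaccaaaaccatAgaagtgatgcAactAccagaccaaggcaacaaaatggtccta
Each pair differs at 2 or 3 of the 60 bases shown, but the stretches were picked to be closely alike. They do not measure the likeness of the whole copy. The source holds 70.1% of the 25-base windows of Gm8730, 73.7% of those of Gm10260 and 63.9% of those of Mrpl48-ps. The alleles that DBA/2J carries at the unlike bases were not read here.

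Rplp0, a protein of the ribosomal stalk on chromosome 5, and the pseudogene Gm8730 on chromosome 8 moved in opposite directions in the same strains. Gm8730 had strain means of 0.19 to 0.58 FPKM (median 0.45) on the C57BL/6J side and 6.06 to 14.8 FPKM (median 7.92) on the DBA/2J side, while Rplp0 had 93.8 to 111 FPKM (median 103) and 33.6 to 72.7 FPKM (median 40.9). The 2 genes were on the same parental side in 100% of strains, although they lie on different chromosomes. Between the parents, the log2 difference was 2.96 ± 0.24 for Gm8730 and -1.38 ± 0.18 for Rplp0 (SE, limma adjusted p = 2.9e-18 and 9.3e-10). The highest strain of the DBA/2J side was BXD-12/TyJ for both.

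The other pairs shown behaved alike. Gm10260, a copy of Rps18 that is annotated as protein-coding and was named after its values were seen, went from a median of 0.20 FPKM to 65.3 FPKM, while the median of Rps18, a small ribosomal subunit protein, was 117 FPKM in the strains where the copy was on the C57BL/6J side and 60.2 FPKM in the others. Mrpl48-ps had medians of 0.41 and 9.10 FPKM, against 49.2 and 18.2 FPKM for Mrpl48, a protein of the mitochondrial ribosome. Its modes matched the region of Mrpl48 on chromosome 7 in 97.7% of strains and its own region on chromosome 4 in 58.1%.

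**Figure D5:**
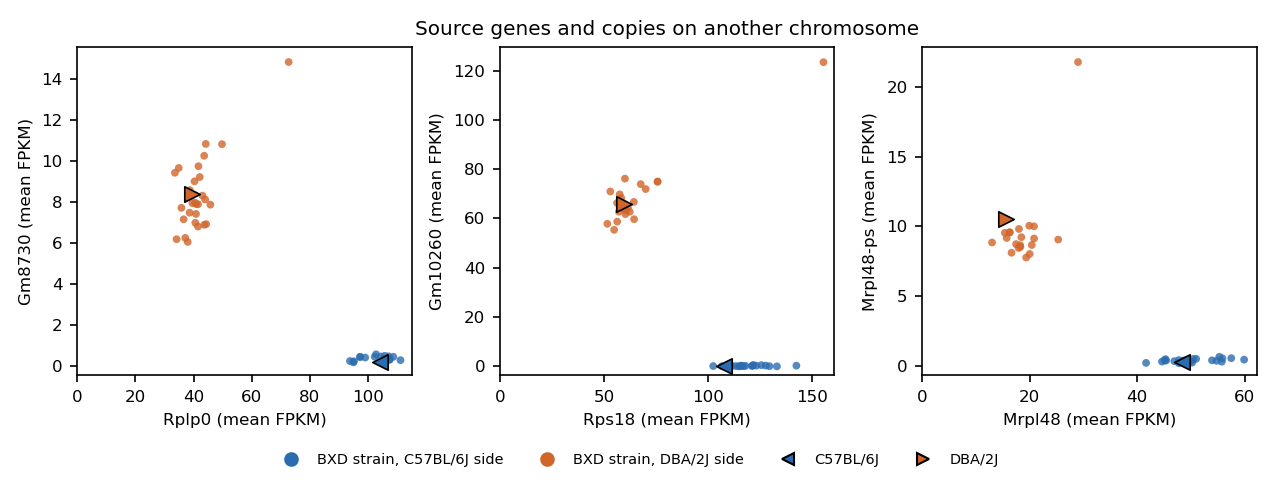
Mean FPKM of the source gene (x axis) and of its copy on another chromosome (y axis) in each BXD strain, coloured by the parental side of the copy, with the parents as triangles. In each panel one group has a high source and a copy near 0, the other a lower source and a raised copy, and the lone high point of the second group is BXD-12/TyJ, at 72.7 FPKM for Rplp0.

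Across the 57 copies whose source gene was measured, the source was lower where the copy was higher, or the reverse, in 45, and by over 2 SE of the difference of strain means in 38. It moved the same way in 12. Sources on the opposite course, named here after their values were seen, included Atp6v0c, the pore subunit of the vacuolar proton pump (medians of 163 and 52.2 FPKM, against 11.4 and 123 FPKM for Atp6v0c-ps2), Rnps1, a splicing activator (28.4 and 11.97 FPKM, against 0.31 and 10.6 FPKM for Gm9825), and Srp9, part of the signal recognition particle (32.5 and 18.5 FPKM, against 0.54 and 20.6 FPKM for Gm13736). Nudc went against the pattern, with medians of 87.1 and 101 FPKM beside 0.96 and 24.4 FPKM for Nudc-ps1, and Tmx2 had 85.6 and 84.6 FPKM beside 1.40 and 6.24 FPKM for Gm5499. The source was itself two-mode for only 9 of the 57 copies. Some sources, such as Rpl15 and Hdac1, were counted with each of their copies.

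The reads had been aligned to the mm10 genome, which is that of C57BL/6J, with mismatches and multiple mappings allowed, and reads with few mismatches to a copy can be placed there. Values of genes and copies that share sequence are therefore uncertain, and the part of read placement in these modes was not tested. The largest difference among the 330 genes, 8.17 on the log2(FPKM + 1) scale, was at XLOC_024435 on chromosome 4, a row with no annotated gene symbol.

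More generally, the sides of 190 two-mode genes with opposite parents could be set against a local state and matched it in a median of 89.9% of strains. This number is above the 185 given for the test on the local state because that test also needed at least 8 strains in each state. For 76 the match was under 80%, and 43 of these matched a two-mode gene on another chromosome in at least 95% of strains. These 43 comprised 20 pseudogenes, 14 protein-coding genes, 8 rows with no annotated gene and 1 other non-coding gene, and 19 of them moved in the direction opposite to their match. The local state of 17 of the 43 was read without any of the 116 protein-coding genes. For the 26 that had such a gene within 5 Mb, the region so read matched in at least 90% of strains for 0. Of the 14 protein-coding genes, 6 had as their match a copy whose source gene lies within 5 Mb of them. The match led back to their own region, except for Gm5506, which is itself the source assigned to its match. Gm5506, on chromosome 18, is in turn listed as a copy of Eno1 on chromosome 4, whose side it shared in 97.7% of strains. Sat2, a polyamine acetyltransferase homologue on chromosome 11 with a log2 difference of -0.81, is one of the genes whose match led back. It matched in 100% of strains the pseudogene Eif4a-ps4 on chromosome 1, which differed by 3.43 and has its source, Eif4a1, beside Sat2 on chromosome 11, while its match of 51.2% with its region rests on 1 pseudogene.
Scoc, a Golgi coiled-coil protein gene on chromosome 8, is one of the protein-coding cases, with medians of 48.6 and 17.2 FPKM. The only two-mode gene within 5 Mb of Scoc is 1 pseudogene, Gm5909, which it matched in 53.5% of strains, so its own region could not be read. It matched an unnamed row on chromosome 16, XLOC_014894, in 100% of strains, which moved by 2.71 on the log2 scale against -1.45 for Scoc. Fggy on chromosome 4, a carbohydrate kinase gene, matched its region in 44.4% of strains, or 46.5% by the protein-coding gene there, and Zfp125 on chromosome 12, a zinc finger row annotated as a pseudogene, in 100%, both being lower with DBA/2J.

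Cdk5rap1, a methylthiotransferase that modifies mitochondrial tRNA, was the only two-mode gene whose parents fell in the same mode (chr2:154335275-154372719). It was high in 11 of 43 BXD strains, with a lowest, median and highest mean of 7.27, 10.1 and 10.98 FPKM, and low in the other 32, with 3.10, 4.17 and 5.22 FPKM. The C57BL/6J mice had 3.86, 4.34 and 4.42 FPKM and the DBA/2J mice 3.89, 4.33 and 5.44 FPKM, so both parents lay in the low mode and did not pass the test between them (log2 difference 0.08 ± 0.16, limma adjusted p = 0.88).
The strain at 7.27 FPKM, BXD-15/TyJ, was the least even, with its mice between 4.91 and 11.8 FPKM. Cdk5rap1 has no parental sides, so its modes were paired with the sides of another gene in whichever way matched better. The nearest two-mode gene, the pseudogene Gm14131, matched in 51.2% of strains. Its source gene, Clns1a, lies on chromosome 7, and the region there matched Gm14131 in 100% of strains. The region of Cdk5rap1 could thus not be read from Gm14131. The best match anywhere was XLOC_002273 on chromosome 1, at 88.4%, with 0 of the 11 high strains and 27 low ones on its DBA/2J side. XLOC_002273 is the pseudogene Gm17868, and its source gene, Tspyl3, lies on chromosome 2 near Cdk5rap1 (chr2:153222370-153225441). Outside the BXD strains the high level was found in 8 of 18 AXB/BXA, 1 of 6 BXH and 4 of 7 CXB recombinant inbred strains, taking the midpoint between the BXD modes as the limit. Of the CXB strains, CXB-13/HiAJ at 6.01 FPKM and CXB-6/ByJ at 6.05 FPKM lay just above this limit and below every high BXD strain, and CXB-3/ByJ at 5.81 FPKM and BXA-24/PgnJ at 5.88 FPKM lay just below it. It was found in 0 of 25 classical inbred strains, whose means ran from 3.54 to 5.83 FPKM.

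A few genes differed in 1 strain alone, its mean lying farther from the next strain than 3 times the range of the other 42. There were 6 such genes. Txndc16, a thioredoxin domain gene, had 7.12 and 7.20 FPKM in the 2 mice of BXD-34/TyJ and strain means of 21.02 to 27.4 FPKM in the others. Anxa6, a calcium-dependent membrane binding protein gene, was higher in BXD-21/TyJ, with 82.2, 85.3 and 91.8 FPKM against 32.9 to 41.7 FPKM. Nln, which encodes the peptidase neurolysin, was lower in BXD60, with 1.81, 1.82 and 2.28 FPKM against 5.86 to 7.15 FPKM.
Zc4h2 on the X chromosome had 1.75, 2.02 and 2.66 FPKM in BXD-5/TyJ against 6.18 to 8.06 FPKM. In these 4 genes the mice of the strain lay together and outside the range of the other strains. In the other 2 genes they did not. Klhl13, an X-linked adaptor of a ubiquitin ligase, had 0.03 and 0.19 FPKM in 2 mice of BXD87 and 29.2 FPKM in the third, which was within the range of the other strains (24.6 to 31.2 FPKM). XLOC_033180 had 5.71 FPKM in 1 mouse of BXD-6/TyJ and 1336 FPKM in the other, against 3.45 to 7.42 FPKM, so its strain mean rests on 1 library.

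Transcripts showed differences that gene totals hid. Of 51024 transcripts, 15801 differed between BXD strains (31.0%) and 0.93% were two-mode, 455 of these with opposite parents. Of the genes they belong to, 46.8% were not two-mode as genes. In 26 genes at least 1 transcript was higher and 1 lower with DBA/2J. The shares of a gene's reads among its transcripts are estimates of Cufflinks, and transcripts that share most of their exons are the least certain.

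Hyi, a hydroxypyruvate isomerase gene, had 1 transcript of 912 bases at 0 FPKM in all 14 strains of the C57BL/6J side and at 3.90 to 14.2 FPKM (median 5.83) in the 29 strains of the DBA/2J side. Another of 843 bases went from a median of 5.28 FPKM to 0.39 FPKM in the same strains, while the gene total was 6.81 and 7.21 FPKM. Sdhc, a membrane anchor of succinate dehydrogenase, had a transcript with medians of 11.998 and 0.01 FPKM and another with 0.65 and 4.96 FPKM, the gene total being 61.9 and 62.7 FPKM.
In Gapdh, the glycolytic dehydrogenase, 1 transcript went from a median of 243 FPKM to 2.22 FPKM and another, of 565 bases, from 5.74 to 105 FPKM, with totals of 590 and 604.9 FPKM. Tpm3, a tropomyosin gene, had medians of 16.5 and 1.78 FPKM for a transcript of 2190 bases and 0 and 7.29 FPKM for one of 655 bases. In these 4 genes each transcript pair was on the same parental side in 100% of strains.

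Genes of hypothalamic function are set against shares over all genes of 2.34% two-mode and 15.7% called with the local state. Of 21 measured feeding genes, 11 differed between BXD strains (52.4%, against 41.4% of all genes), 0 were two-mode, and 0 of 15 tested differed with the local state. Of 17 neurosecretory peptide genes, 14 differed (82.4%), 0 were two-mode, and 0 of 6 tested differed with the local state. Their median strain shares were 18.7% and 24.9%. The strain with the highest mean was BXD-12/TyJ for 6 of the feeding genes and 9 of the neurosecretory genes. Without mouse OB-547, 15 of the 21 feeding and 15 of the 17 neurosecretory genes differed, beside 7615 of all 14079 genes. Npy2r was then called with the local state.

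Single genes of these lists, named after their values were seen, had ranges whose upper end was set by mouse OB-547. Hcrt, the precursor of the arousal peptides orexin A and B, had strain means from 72.3 FPKM in BXD-6/TyJ to 329 FPKM in BXD-12/TyJ, with a median of 123 FPKM, and without mouse OB-547 the highest was 219 FPKM in BXD-40/TyJ. Avp, the vasopressin precursor, ran from 137 to 994.8 FPKM around a median of 223.9 FPKM, its highest strain again being BXD-12/TyJ, and without mouse OB-547 the highest was 370.5 FPKM in BXD60. Gnrh1, the precursor of the hormone that drives gonadotropin release, was called between the parents, with 0.72 to 2.23 FPKM in C57BL/6J and 4.38 to 6.19 FPKM in DBA/2J (log2 difference 1.23 ± 0.37, limma adjusted p = 0.025), and its BXD strain means ran from 1.57 to 7.13 FPKM without 2 modes.

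Markers of neighbouring tissue moved between strains too. Of the listed markers, 6 of 9 for hypothalamus, 6 of 6 for anterior pituitary, 5 of 5 for choroid plexus, 5 of 5 for thalamus and 5 of 5 for blood differed between BXD strains, against 41.4% of all genes. Summed over its list, the level in single mice ran from 837 to 9200 FPKM (median 1322) for hypothalamus, from 0.782 to 16462 FPKM (median 28.2) for anterior pituitary, from 9.05 to 2101 FPKM (median 26.0) for choroid plexus and from 21.7 to 381 FPKM (median 212) for thalamus. These ranges include mouse OB-547, which had the highest Hcrt (718 FPKM) and Avp (2493 FPKM) of any BXD mouse. Each of the 9 hypothalamic markers was above 0 in every BXD mouse, from a lowest level of 0.90 FPKM for Nr5a1 to 263.9 FPKM for Pmch, while Sim1 is not among the rows. The defining pituitary genes Gh and Prl were listed at 0 in 2 and 9 mice. Pomc, which both the arcuate nucleus and the pituitary express, had a median strain mean of 28.9 FPKM and a highest of 2165 FPKM in BXD85. The part of such tissue in the differences of the peptide genes was not tested.

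Among immune genes, 15 of 19 measured genes of the MHC and antigen presentation differed between strains (78.9%, against 41.4% of all genes), 10 of 18 tested differed with the local state (against 15.7%), 3 higher and 7 lower with DBA/2J, and 2 were two-mode (10.5%, against 2.34%). The MHC on chromosome 17 is highly polymorphic, and C57BL/6J and DBA/2J carry different haplotypes of it. H2-Q2 had strain means of 3.57 to 8.54 FPKM (median 5.84) on the C57BL/6J side and 0.96 to 3.00 FPKM (median 1.68) on the DBA/2J side, and H2-T22 had 7.29 to 15.2 FPKM (median 8.27) and 3.07 to 4.802 FPKM (median 3.89). H2-Q4 and H2-Q6 were higher with the DBA/2J state, by 0.78 ± 0.13 and 0.70 ± 0.10 on the log2 scale (SE, limma adjusted p = 9.6e-06 and 6.9e-07). BXD74 had the highest mean for many of these genes, such as 95.1 FPKM for H2-K1 against a median strain of 14.5 FPKM, and 54.0 FPKM for Cd74 against 4.19 FPKM. MHC class I genes resemble each other in sequence, and 34.5% of the 50-base windows of H2-T22 occur in another gene, so their values are uncertain.

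Hemoglobin genes, which mark residual blood, differed between strains, and 3 of 4 were called with the local state, in unlike directions. Hba-a2 had strain means of 2.59 to 19.7 FPKM (median 6.09) on the C57BL/6J side and 0 to 1.67 FPKM (median 0.14) on the DBA/2J side, while Hba-a1, whose sequence holds 93.6% of its 25-base windows, was higher with the DBA/2J state by 0.73 ± 0.16 on the log2 scale (SE, limma adjusted p = 0.00036). The adult beta chain gene Hbb-bt was lower with the DBA/2J state, by -0.86 ± 0.17 (SE, limma adjusted p = 8.4e-05), and Hbb-bs, the other adult beta chain gene, was not called, with a difference of 0.39 ± 0.15 (SE, limma adjusted p = 0.081). The blood list summed to between 35.9 and 580 FPKM per mouse. Reads had been aligned to the C57BL/6J genome, and the part of read placement in the differences of the hemoglobin genes was not tested.

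The remaining lists are set against 41.4% of all genes that differed between strains, 2.34% that were two-mode and 15.7% that were called with the local state. Without mouse OB-547, 7615 of all 14079 genes differed between strains. Of 16 clock genes 13 differed (81.2%), and again 13 without mouse OB-547, 0 were two-mode, and 1 of 11 tested, the locus of Dbp with Car11, differed with the local state. Of 13 GABA-A receptor loci 7 differed (53.8%), 0 were two-mode and 2 of 10 differed with the local state, namely the locus of Gabra2 and Gabrg1 (38.0 and 48.7 FPKM in the C57BL/6J and DBA/2J states) and Gabrg3 (6.92 and 5.98 FPKM). Of 17 glutathione transferase genes 10 differed (58.8%) and 0 were two-mode, and BXD-12/TyJ was the highest strain for 15. Zinc finger genes named Zfp had 71 that differed (25.9%) and 9 that were two-mode (3.28%).
Ribosomal protein genes had 27 of 100 that differed (27%) and 7 two-mode (7%), and subunits of oxidative phosphorylation 18 of 101 (17.8%) and 2 (1.98%). Without mouse OB-547 these counts of differing genes were 69 and 53, beside 7615 of all 14079 genes. With that mouse included, BXD-12/TyJ had the highest mean for 90 of the 100 ribosomal and 92 of the 101 oxidative phosphorylation genes. The 7 two-mode ribosomal rows were Rplp0, Rps18, Rpl29, Rpl21, Rpl34, Rps3a2 and Rps3a3. Of these, Rps3a2 and Rps3a3 are annotated as pseudogenes, and only Rpl34 was among the protein-coding genes of unshared sequence.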

How the data were processed

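RNA-seq of the whole hypothalamus gave 1 library per male mouse. Per the labels and the study's methods, the authors aligned reads to mm10 with STAR 2.3.1, assembled them by strain with Cufflinks 2.2.0 guided by UCSC transcripts, merged the assemblies with GENCODE M2, and deposited FPKM that Cuffnorm 2.2.1 had scaled between libraries, after a filter on low values. Strain labels gave the groups, and 1 mouse whose labels give conflicting strain names was not used. FPKM were tested as log2(FPKM + 1) with limma 3.58.1 (R 4.3.3) without covariates, with Benjamini-Hochberg adjustment over all rows tested and a threshold of 0.05. The parental contrast shared its spread with the 43 BXD strains. Two-mode calls, local states and discordance came from own code (scipy 1.17.1, pandas 2.3.3 and numpy 2.4.6 under Python 3.11.15), and figures from matplotlib 3.10.9. Steps across many genes were tested on simulated data.

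Positions are those of the merged assembly in mm10. Gene classes, sequences and shared windows (50 or 25 bases) come from GENCODE M21 on the same build. Libraries are unstranded, so overlapping and antisense genes cannot be told apart, and joined loci are 1 row. The labels do not say whether mice of a strain shared a litter or cage. The p-values of the F test and of the parental contrast therefore measure the spread between these mice. Those of the test on the local state and of the permutation test measure the spread between strains. Genotypes and /TyJ or RwwJ pedigrees were not used here.

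Genes named are the 20 two-mode genes of largest separation with an ordinary symbol, the first of each chromosome, list members that were two-mode or called with the local state (up to 5 for lists other than known differences, feeding and peptides), two-mode genes with both parents in 1 mode, genes matching another chromosome better than their own region, genes of 1 strain and genes with opposed transcripts. The members and lists were chosen with earlier results of these data known. Alternatives were other pseudocounts, a minimum of 1 FPKM, quantile normalization, 3 principal components removed, other separations and mode sizes, a Kruskal-Wallis test, 1 fit of all strains, and mice left out. The values of 1 listed gene are not reported here.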

Additional observations from a re-analysis of the deposited data

How the results depend on the processing

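The FPKM keep no depth, so how depth limits low genes is unknown. Leaving out replicate 1, 2 or 3 of every strain that has it gave 2767 to 3258 genes that differ between strains, a median strain share of 15.5 to 18.3%, a two-mode share of 1.72 to 1.96% of genes (2.34% with all mice) and 717 to 999 genes that differ with the local state; fewer mice were tested, and with 2 mice per strain the counts fell. With all labelled strains in 1 fit, 9080 genes differed. The median strain share was 19.97% without mouse OB-547, 19.97% without both mice OB-547 and OB-831, and 25.3% with 3 principal components removed, whose cause was not tested. A separation of at least 4 made 3.78% of genes two-mode, 513 genes of them with opposite parents, and 69 genes with opposed transcripts, and at least 6 gave 14 of the latter. The median discordance under 1 Mb was 4.65% at a separation of at least 4, against 2.33%, and the two-mode members of the first 7 gene lists were 6, or 9 without mouse OB-547, with the locus of Gabra2 counted in both of its lists. The other main counts moved by less than 1.5 times under the alternatives run, such as 5046 differing genes by the Kruskal-Wallis test and 5512 above a mean of 1 FPKM. Of the differences between modes of 76 named genes, 710 values stayed within the spread of the strains, 115 moved beyond it, all under the pseudocounts of 0.1 or 0.01, and 0 reversed. Leaving out mouse OB-831, alone or with OB-547, reading local states from protein-coding genes alone, and the class and list counts without these mice were chosen after seeing the data. No paired analysis was possible because the labels carry no replicate numbers. Replicates 1, 2 and 3 above are only the order in which the mice of a strain are listed.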
